A study of Homo sapiens with 12 samples.

Results

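Cullin-RING ligases are the largest group of ubiquitin ligases, and 132 genes for their scaffolds, adaptors and substrate receptors were followed in Huh7, a long-established line of human hepatocellular carcinoma cells. A gene belonged to the set when its symbol in the deposited table was a numbered cullin (CUL), F-box gene of the FBXW, FBXL or FBXO series, Kelch-like gene (KLHL), DCAF or SOCS gene, or BTRC, SKP1, SKP2, RBX1 or DDB1, and its description did not name a pseudogene. The table listed 60666 genes in all. The rule reads symbols and descriptions and no expression value, but it was set with earlier results of these data known. RNA was sequenced from 3 control libraries (NC) and 3 libraries with a knockdown of FAM111B (shFAM111B), a serine protease studied as a target in liver cancer. Both groups are the same cell line, transduced with lentivirus and selected with puromycin, and they differ in the short hairpin, which was directed at FAM111B or was the negative control. Libraries of the Hep3B line were not analysed here. The labels do not say that replicates came from separate cultures, so the p-values measure the spread between these libraries, which may be technical.

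In a cullin-RING ligase, an elongated cullin holds the RING protein RBX1 at one end, which recruits the ubiquitin-carrying E2 enzyme, and an adaptor with a substrate receptor at the other end. CUL1 uses SKP1 and F-box proteins, CUL3 binds Kelch-like proteins directly through their BTB domain, CUL4A and CUL4B use DDB1 and DCAF proteins, and CUL2 and CUL5 use elongins B and C with VHL-box or SOCS-box proteins. Attachment of the small protein NEDD8 to the cullin switches the ligase on, and the COP9 signalosome removes it.

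Levels are TPM, which correct the reads of a gene for transcript length and express them per fixed total of a library, so they can be compared between genes and are relative to all other transcripts. Fold changes are differences of log2(TPM + 1), shFAM111B minus control, and were tested with limma's moderated test and Benjamini-Hochberg adjustment over the 14394 genes with 1 TPM or more in 3 or more libraries. A gene was called lower or higher when its fold change was at least 2 and its adjusted p was under 0.05. FAM111B itself was at 7.84, 8.29 and 7.99 TPM in the control libraries and at 0.96, 1.13 and 0.84 TPM in the shFAM111B libraries. It was therefore lower in all shFAM111B libraries, as labelled, with a log2 fold change of -2.20 ± 0.11 (SE, n = 3 per group, limma adjusted p = 6.09e-06).

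The libraries differed in more than these genes. The median tested gene changed by -0.36 on the log2 scale, so each change below is also read against that value. Transcripts of the mitochondrial chromosome took 196140 to 201464 TPM in the controls and 73237 to 78883 TPM in the shFAM111B libraries, and short non-coding RNAs took 1627 to 4828 TPM in the controls against 46561, 68680 and 5007 TPM in shFAM111B replicates 1 to 3. All 12 hepatocyte and Huh7 markers had at least 1 TPM in every library. After knockdown 8 of them were lower, such as ALB at 6444 and 4161 TPM, and 4 were higher (median log2 fold change -0.52). Of the 14394 tested genes, 9307 were below 0. Among the markers 2 (16.7%) were called lower and 3 (25%) higher, against 23.7% and 6.77% of all tested genes. The sum of the 12 markers went from 28154 to 28732 TPM in controls to 41710 to 46682 TPM, with AFP at 7274 and 23062 TPM. Of 14 markers of other cell types, 5 or 6 had at least 1 TPM in a library, 4 to 6 were at 0, and their sum was 82.9 to 88.6 TPM in controls and 217 to 251 TPM after knockdown. KRT19, the marker of that list that was called, went from 31.0 to 166 TPM and held most of that difference. The part of these differences in the results below was not tested. In bulk RNA, fewer cells of a type and less RNA per cell cannot be told apart.

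Of the 132 members, 100 were tested. The other 32 never rose above 1.63 TPM in any library, and FBXO40, FBXO47, KLHL4, KLHL10 and KLHL40 were listed at 0 in all libraries. Of the 100 tested members, 44 were called lower after FAM111B knockdown, 3 were called higher and 53 were not called. Over all tested genes, 23.7% were called lower and 6.77% were called higher. The 3 members called higher were RBX1, FBXO2 and SOCS1. The median member changed by -0.92, which is 0.56 below the median of all tested genes, and 76 of the 100 members lay below that median. In 80 members every shFAM111B library was lower than every control, against 52.8% of all tested genes. In 6 members every shFAM111B library was higher, against 22.5% of all tested genes, and in 14 members the groups overlapped. The summed level of all members was 2573 to 2590 TPM in the controls and 1825 to 1881 TPM after knockdown.

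The number of calls depended on how the libraries were scaled. After median-of-ratios scaling, which sets the typical gene to no change, 22 members were called lower and 4 higher, against 12.4% and 14% of all tested genes, and the members' median was -0.53 with the median gene at 0.028. After the trend of the fold change with transcript length and expression had been removed, 13 members were lower and 6 higher, against 9.11% and 9.54% of genes, and their median was -0.36 with the median gene at -0.015. The share of higher genes among those called went from 6.38% in the deposited TPM to 15.4% after median-of-ratios scaling and 31.6% after trend removal for the members, and from 22.2% to 52.9% and 51.1% for all genes. Across 6 scalings, the deposited TPM among them, 11 members were called lower in each and 3 higher in each. The lower genes included CUL2, DCAF8, DCAF16, DCAF17, FBXL14, FBXO5, FBXO10, FBXO11, FBXO34 and KLHL5, and the higher genes were RBX1, FBXO2 and SOCS1. FBXL14 and FBXO11 are named after their values were seen. FBXO11 overlaps MSH6 on the opposite strand over 25.2% of its exon bases, whether counting used strand is not stated, and MSH6 was itself at 39.5 TPM in the controls and 15.0 TPM after knockdown. Of all tested genes, 5.84% were called lower and 4.76% higher in each of the 6.

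**Figure D1:**
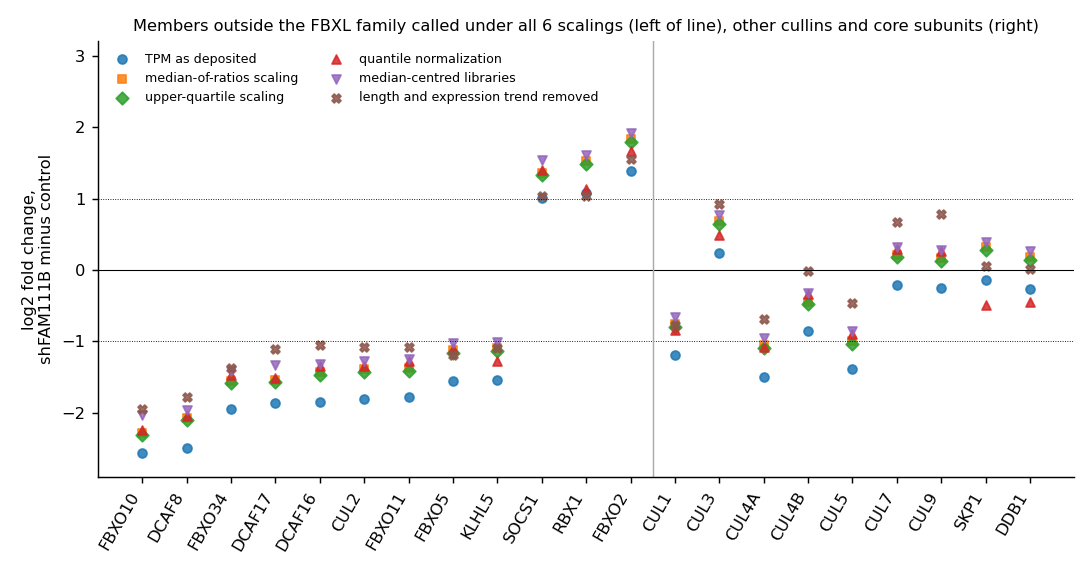
Log2 fold change (shFAM111B minus control) under 6 scalings, for the members outside the FBXL family that were called under all 6 (left of the vertical line) and for the other cullins, SKP1 and DDB1 (right). The lower genes on the left stay below 0 and the 3 higher genes above it in each, whereas CUL7 and CUL9 are below 0 only in the deposited TPM.

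**Figure D2:**
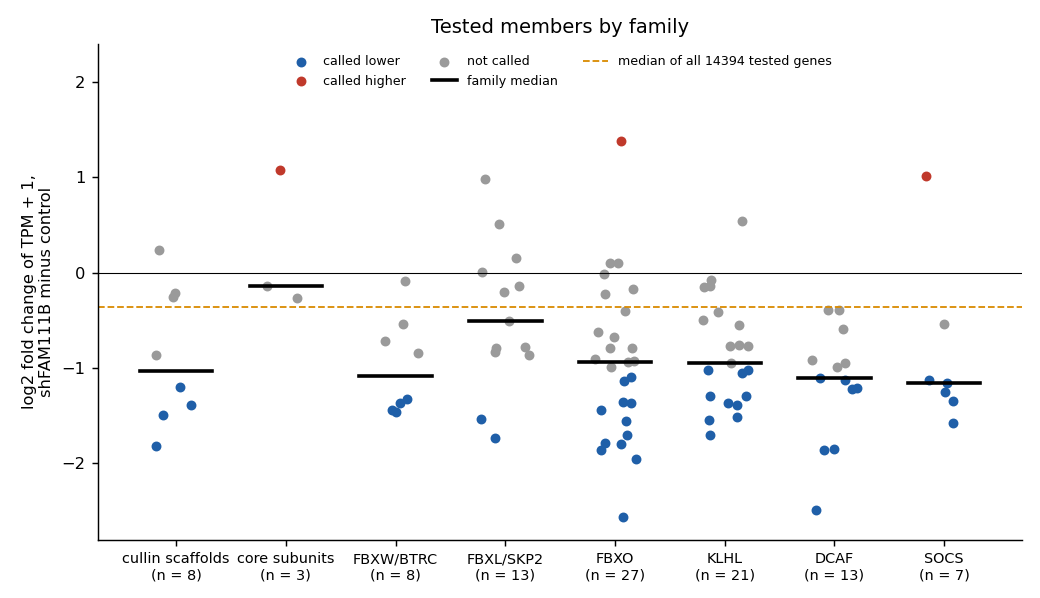
Each point is the log2 fold change (shFAM111B minus control, on log2(TPM + 1)) of a tested member, by family, with lines for the median of each family and of all tested genes (-0.36), and colours for the call. In these deposited TPM the DCAF genes all lie below the median gene, and RBX1, FBXO2 and SOCS1 are the members called higher.

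The cullin scaffolds moved unequally. CUL1, CUL2, CUL4A and CUL5 were called lower among the 8 cullins (50%, against 23.7% of all tested genes). None was called higher, and CUL3 was the member of the group with a positive value. CUL2, the scaffold of the VHL ligase (GRCh38 chr10:35008551-35090642, minus strand), was at 37.3, 36.0 and 34.5 TPM in the controls and at 10.1, 10.2 and 8.33 TPM after knockdown. Its log2 fold change was -1.81 ± 0.091 (SE, limma adjusted p = 5.62e-06), the largest fall of the 8, and it was called under each scaling. CUL4A, a DDB1-binding scaffold, was at 46.7, 42.2 and 42.0 TPM in the controls and at 15.7, 15.2 and 13.7 TPM after knockdown, a change of -1.49 ± 0.078 (SE, limma adjusted p = 6.27e-06). CUL5, which carries SOCS-box receptors, went from 11.6, 10.5 and 9.06 TPM to 2.56, 3.95 and 3.66 TPM (-1.38 ± 0.16, SE). CUL1, the scaffold of the SCF ligases, went from 55.8, 53.8 and 54.0 TPM to 23.6, 24.1 and 22.1 TPM (-1.20 ± 0.058, SE). The control and shFAM111B libraries were apart for each of these 4 genes. The calls of CUL1 and CUL5 were lost after median-of-ratios scaling, and that of CUL4A after trend removal and in median-centred libraries. Of the 6 scalings, CUL1 was called lower in 1 (the deposited TPM), CUL5 in 2 and CUL4A in 4. The values of these 3 genes stayed below 0 in each.

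CUL3 (chr2:224470150-224585397, minus strand), the scaffold for Kelch-like receptors, was at 49.5, 52.8 and 50.8 TPM in the controls and at 59.3, 60.9 and 60.5 TPM after knockdown. Every shFAM111B library was above every control, and the difference of 0.24 ± 0.050 (SE, limma adjusted p = 0.00408) was below the 2-fold limit. CUL4B, the paralogue of CUL4A, had a log2 value of -0.86 ± 0.13 (SE) and was not called either. CUL7, which pairs with FBXW8, and CUL9, a cytoplasmic p53-binding cullin, had values of -0.21 and -0.25 in the deposited TPM that turned to 0.22 and 0.17 after median-of-ratios scaling and stayed above 0 after trend removal. The CUL9 libraries overlapped between the groups.

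**Figure D3:**
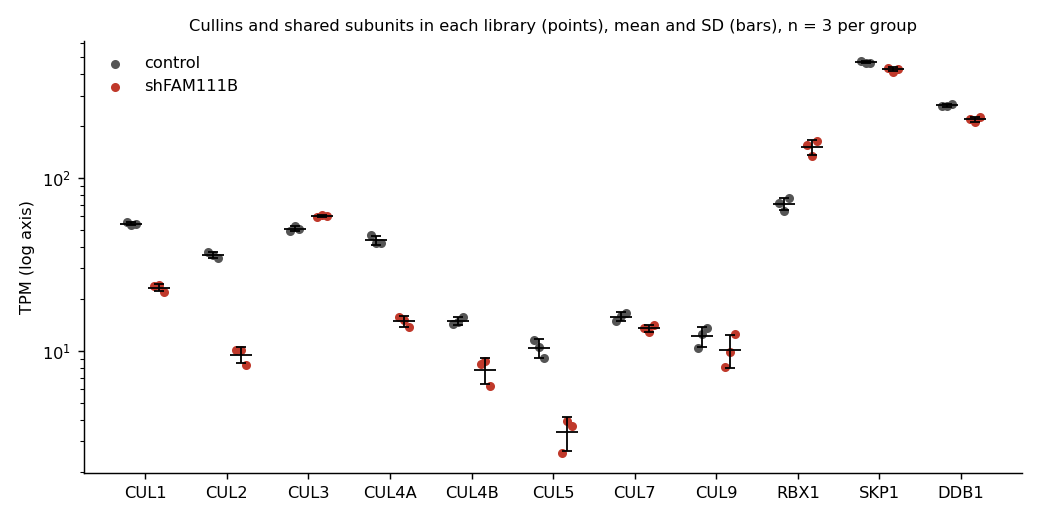
TPM of each cullin and of RBX1, SKP1 and DDB1 in each of the 3 control and 3 shFAM111B libraries, on a log axis, where points are libraries and bars the mean and SD (n = 3). CUL1, CUL2, CUL4A and CUL5 are lower in every shFAM111B library, and RBX1 and CUL3 are higher in every one.

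Dividing a library by 1 factor leaves the ratio of its members unchanged, whereas quantile normalization and trend removal change it, so the ratios given here are those of the deposited TPM. Under quantile normalization the log2 values of SKP1 (-0.49) and DDB1 (-0.45) lay closer to the FBXO median (-0.57) and the DCAF median (-0.65). CUL3 made up 20.6%, 22.1% and 21.5% of the summed cullin TPM in the controls and 42.0%, 41.8% and 42.8% after knockdown, so the largest cullin share passed from CUL1 to CUL3. CUL1 went from 22.9% ± 0.324 to 16.3% ± 0.578 of the sum (SD, n = 3), CUL2 from 15.1% ± 0.464 to 6.68% ± 0.682, and CUL4A from 18.3% ± 0.972 to 10.4% ± 0.697. The share of CUL4B was 6.24% ± 0.374 in the controls and 5.46% ± 0.879 after knockdown, with overlapping libraries (exact two-sided permutation test, p = 0.3). CUL4A stood at 2.95 ± 0.306 times the level of CUL4B in the controls and at 1.93 ± 0.230 times after knockdown. With 3 libraries against 3, the exact two-sided permutation test cannot go below 0.1, the value it gave for all 16 ratios computed except that CUL4B share and the ratio of BTRC to FBXW11 (p = 0.2). Adjusted over the 16 by the Benjamini-Hochberg method, that smallest exact p became 0.114, so no ratio could pass 0.05.

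**Figure D4:**
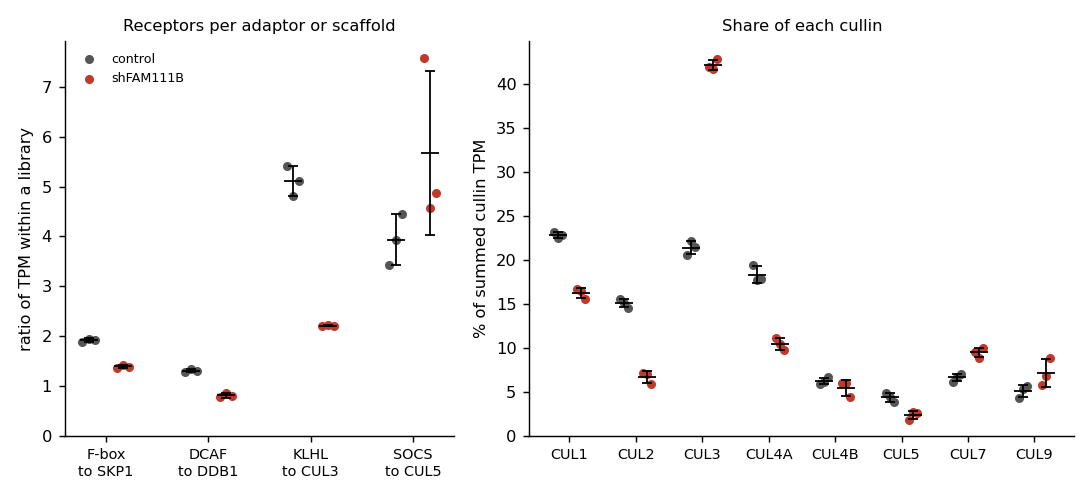
Summed receptors relative to their adaptor or scaffold (left, ratio of TPM) and the percent of summed cullin TPM held by each cullin (right), with points for the 3 libraries of each group and bars for the mean and SD. The summed KLHL level relative to CUL3 is 4.80 to 5.42 in the controls and 2.20 to 2.22 after knockdown.

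Of the shared subunits, RBX1 was called higher and SKP1 and DDB1 were not called. RBX1, the RING subunit (chr22:40951347-40973309, plus strand), was at 71.6, 64.7 and 76.2 TPM in the controls and at 155, 134 and 164 TPM after knockdown. All shFAM111B libraries were above all controls, with a log2 fold change of 1.08 ± 0.093 (SE, limma adjusted p = 4.68e-05), and it was called higher under each of the 6 scalings. SKP1, the adaptor of F-box proteins, was at 475, 464 and 465 TPM in the controls and at 435, 413 and 427 TPM after knockdown. DDB1, the adaptor of DCAF proteins, was at 261, 260 and 269 TPM against 219, 210 and 226 TPM. Both had every shFAM111B library below every control. Their log2 values of -0.14 and -0.27 were above that of the median gene and turned to 0.31 and 0.19 after median-of-ratios scaling but not after quantile normalization. Relative to RNF7, the RING subunit that works with CUL5, RBX1 went from 1.86 ± 0.274 to 2.49 ± 0.249 (SD, n = 3). RBX1P2, a pseudogene of RBX1, was listed at 0.763 TPM on average after knockdown and at 0 in the controls, and SKP1P1 at 2.25 against 0.447 TPM. Reads shared between these genes and their copies cannot be separated in TPM.

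The promoters of the members were searched for sites of E2F, the transcription factors of S-phase genes, and of STAT, the factors that switch on SOCS genes after cytokine stimulation. RefSeq gives promoters on GRCh38.p14 for 107 of the 132 members, each from 250 bases before to 50 bases after the start. TTTGGCGC on either strand was in 2 of the 107, FBXO9 and KLHL42, against 0.652% of 35116 promoters. Both were called lower in the deposited TPM, as were 44 of the 100 tested members. FBXO9 was called lower in 3 of the 6 scalings and KLHL42 in 1. TTTCGCGC was in 1 of the 107, KLHL36, against 0.515% of all promoters. TTCNNNGAA was in 2 of the 107, CUL1 and FBXO47, against 7.66% of all promoters, and in 0 of the 4 SOCS promoters found. A match is a description of letters and not a site in use. The matching stretches of the members called lower are shown, upstream of the start site, 5′ to 3′ on the strand of the gene with the match in capitals. The FBXO9 stretch is chr6:53064912-53064997, the KLHL42 stretch chr12:27780046-27780173 and the CUL1 stretch chr7:148697656-148697755, all on the plus strand, and FBXO9 holds the motif in reverse complement.
FBXO9: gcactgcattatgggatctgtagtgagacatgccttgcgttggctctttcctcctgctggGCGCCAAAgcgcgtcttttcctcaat
KLHL42: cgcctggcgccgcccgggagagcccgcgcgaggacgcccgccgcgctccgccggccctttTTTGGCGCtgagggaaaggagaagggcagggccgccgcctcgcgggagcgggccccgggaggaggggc
CUL1: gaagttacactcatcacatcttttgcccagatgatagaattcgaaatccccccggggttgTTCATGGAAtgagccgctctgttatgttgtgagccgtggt

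The F-box genes encode the substrate receptors of CUL1 ligases. Among those with WD40 repeats (FBXW and BTRC), 4 of 8 tested (50%) were called lower, against 23.7% of all tested genes, and none higher, with a median log2 fold change of -1.09. FBXW7, the receptor for cyclin E, MYC and NOTCH1, went from 12.2 ± 1.16 to 3.82 ± 0.869 TPM (SD, n = 3), a change of -1.46 ± 0.15 (SE). FBXW8, the partner of CUL7, changed by -1.44 ± 0.11, FBXW2 by -1.36 ± 0.093 and FBXW11 by -1.33 ± 0.17, the last 2 not called after median-of-ratios scaling. FBXW7 (-0.57) and FBXW8 (-0.66) were within the 2-fold limit after trend removal, as were FBXW2 and FBXW11. FBXW7 and FBXW8 were also within it after quantile normalization and in median-centred libraries. BTRC and its paralogue FBXW11 both recognise phosphorylated beta-catenin and IkB. BTRC was at 3.24 ± 0.369 TPM in the controls and 1.58 ± 0.345 TPM after knockdown. At -0.72 on log2(TPM + 1) it was not called, whereas with 0.1 added in place of 1 it was called lower at -1.005. The ratio of BTRC to FBXW11 overlapped between the groups. FBXW5 had the highest control level of these genes, 80.3 ± 7.88 TPM, against 75.4 ± 5.64 TPM after knockdown. Its libraries overlapped, and its log2 value of -0.087 turned to 0.36 after median-of-ratios scaling.

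The leucine-rich repeat F-box genes (FBXL and SKP2) had 2 of 13 (15.4%) called lower, against 23.7% of all tested genes, and none higher. Their median was -0.51, which turned to 0.023 in median-centred libraries. FBXL19, named after its values were seen, was at 3.69 ± 0.710 TPM in the controls and 8.22 ± 0.161 TPM after knockdown, with no overlap. Its change of 0.985 ± 0.13 (SE) was just below the 2-fold limit in the deposited TPM, and it was called higher in 5 of the 6 scalings. FBXL14 was at 3.26, 2.77 and 3.32 TPM in the controls and at 0.32, 0.77 and 0.22 TPM after knockdown, with no overlap and a change of -1.54 ± 0.18 (SE, limma adjusted p = 0.000207). SKP2, the receptor for the cell cycle inhibitor CDKN1B, was at 87.1, 81.8 and 78.7 TPM against 46.7, 51.7 and 44.3 TPM. The SKP2 groups did not overlap, and the change of -0.78 ± 0.073 (SE) was below the 2-fold limit. FBXL5, the iron-sensing receptor for IREB2, was at 36.4 ± 2.26 and 40.7 ± 1.12 TPM (0.16 ± 0.064, SE, limma adjusted p = 0.0614).

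The remaining F-box genes (FBXO) are grouped by the F-box alone and have varied substrate-binding domains. Of 27 tested, 12 (44.4%) were called lower and 1 (3.70%) higher, against 23.7% and 6.77% of all tested genes, with a median of -0.94. FBXO10 (chr9:37510892-37576349, minus strand), a receptor for BCL2, was at 10.5, 6.54 and 7.11 TPM in the controls and at 0.22, 0.87 and 0.5 TPM after knockdown. Its log2 fold change of -2.56 ± 0.22 (SE, limma adjusted p = 5.03e-05) was the largest fall among the tested members on the log2(TPM + 1) scale, whereas by the ratio of mean TPM KLHL11, named after its values were seen, was further down (0.012 against 0.066). FBXO34 changed by -1.95 ± 0.14 and FBXO30 by -1.86 ± 0.12, of which FBXO30 was at -0.97 and not called after trend removal. FBXO5, also known as EMI1, an inhibitor of the anaphase-promoting complex, was at 39.6, 40.0 and 35.2 TPM against 12.3, 14.3 and 10.6 TPM (-1.55 ± 0.11, SE). All of the FBXO5 knockdown libraries lay below all controls.

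FBXO2 (chr1:11637018-11655785, minus strand), a receptor for glycoproteins with high-mannose sugars, went the other way. It was at 29.5, 28.5 and 32.5 TPM in the controls and at 76.1, 79.9 and 85.2 TPM after knockdown, with a log2 fold change of 1.38 ± 0.072 (SE, limma adjusted p = 6.14e-06). The groups did not overlap, and it was the largest rise among the members. FBXO7, linked to mitophagy and early-onset parkinsonism, had the highest control level of the family, 96.8 ± 3.46 TPM, against 50.3 ± 1.20 TPM after knockdown, and its change of -0.93 ± 0.050 (SE) was below the 2-fold limit. Summed over all F-box genes, the level relative to SKP1 went from 1.92 ± 0.030 to 1.39 ± 0.034 (SD, n = 3).

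The Kelch-like genes encode BTB receptors for CUL3. Of 21 tested, 10 (47.6%) were called lower, against 23.7% of all tested genes, and none higher. Their median of -0.95 turned to 0.012 after the length and expression trend had been removed. KLHL5 had the highest control level, at 86.4, 78.2 and 77.2 TPM, and was at 27.3, 28.3 and 25.5 TPM after knockdown (-1.54 ± 0.069, SE, limma adjusted p = 4.09e-06). KLHL15, a receptor for a regulatory subunit of the phosphatase PP2A, went from 5.25 ± 0.779 to 0.92 ± 0.102 TPM (-1.70 ± 0.14, SE). KLHL9 and KLHL13 act together with CUL3 on Aurora B in mitosis. KLHL9 went from 8.32 ± 0.340 to 2.25 ± 0.047 TPM (-1.52 ± 0.097, SE), and its ratio to KLHL13 went from 1.29 ± 0.149 to 0.662 ± 0.012 (SD, n = 3). After trend removal KLHL15 (-0.96) and KLHL9 (-0.69) were not called, and KLHL9 was at -0.98 and not called in median-centred libraries. KLHL20, a receptor for DAPK1 and PML, was called at -1.02 ± 0.18 (SE), close to the 2-fold limit, and at -0.98 and -0.87 it was not called without control replicate 2 or shFAM111B replicate 3, nor after median-of-ratios scaling. The summed KLHL level relative to CUL3 was 5.42, 4.80 and 5.12 in the controls and 2.21, 2.22 and 2.20 after knockdown, with CUL3 itself higher and the KLHL sum at 261 ± 7.33 against 133 ± 2.25 TPM. KLHL5 alone held 80.6 and 27.0 TPM of these sums.

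The DCAF genes encode substrate receptors that dock on DDB1. All 13 were tested, 7 were called lower and none higher, and in all 13 every shFAM111B library was below every control, against 23.7% and 52.8% of all tested genes. After median-of-ratios scaling and after trend removal, 3 of the 13 were called lower in each, against 12.4% and 9.11% of all tested genes. The DCAF median was -1.10 in the deposited TPM, where all 13 lay below the median of all tested genes (-0.36), DCAF6 and DCAF15 at -0.39. After median-of-ratios scaling DCAF6 (0.056) and DCAF15 (0.058) lay above the median gene (0.028). After trend removal DCAF6 (0.10), DCAF10 (0.066) and DCAF13 (0.087) lay above it (-0.015). DCAF6, DCAF10 and DCAF15 are named after their values were seen. DCAF8 (chr1:160215715-160262531, minus strand) was at 37.8, 41.3 and 41.8 TPM in the controls and at 5.78, 6.22 and 7.09 TPM after knockdown, with a log2 fold change of -2.49 ± 0.091 (SE, limma adjusted p = 2.65e-06). It shares 30.0% of its exon bases with AL139011.2 on the same strand, which was at 14.7 and 14.3 TPM, and the sum of the pair was 54.9 ± 1.73 TPM in the controls and 20.6 ± 1.40 TPM after knockdown. DCAF17, mutated in Woodhouse-Sakati syndrome, changed by -1.86 ± 0.14 and DCAF16, a receptor used by some degrader molecules, by -1.85 ± 0.15. DCAF1, the host receptor of the HIV protein Vpr, changed by -1.10 ± 0.14 and lost its call after median-of-ratios scaling. It overlaps RBM15B on the opposite strand over 19.3% of its exon bases, and whether counting used strand is not stated. DCAF7 (-0.95 ± 0.071, SE) and DCAF13 (-0.59 ± 0.068, SE) were not called, and the DCAF13 value turned to 0.087 after trend removal. With 0.1 added to the TPM in place of 1, DCAF7 was called lower at -1.01. DCAF13 had the highest control level of the family, 51.3 ± 2.71 TPM, against 33.8 ± 2.01 TPM after knockdown. The summed DCAF level relative to DDB1 went from 1.30 ± 0.027 to 0.810 ± 0.043 (SD, n = 3).

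The SOCS genes encode SOCS-box receptors for CUL5 that restrain cytokine receptors and JAK kinases. Of 7 tested, 5 (71.4%) were called lower and 1 (14.3%), SOCS1, was called higher, against 23.7% and 6.77% of all tested genes. SOCS1, a direct inhibitor of JAK kinases (chr16:11254405-11256200, minus strand), was at 2.42, 1.82 and 2.04 TPM in the controls and at 5.87, 4.55 and 5.31 TPM after knockdown. All shFAM111B libraries were above the controls, with a log2 fold change of 1.01 ± 0.14 (SE, limma adjusted p = 0.000435), and at 0.95 and 0.94 it was not called without control replicate 2 or shFAM111B replicate 1. SOCS4 changed by -1.57 ± 0.10, SOCS6 by -1.34 ± 0.13, SOCS7 by -1.25 ± 0.16 and SOCS2, the feedback inhibitor of growth hormone signalling, by -1.16 ± 0.14. SOCS3, the inhibitor of gp130 signalling, was at 2.84 ± 0.336 and 1.64 ± 0.138 TPM (-0.54 ± 0.13, SE) and was not called. SOCS2, SOCS6 and SOCS7 lost their calls after median-of-ratios scaling, and SOCS4 (-0.65) lost its call after trend removal, as those 3 did. The summed SOCS level went from 40.4 ± 0.788 to 18.4 ± 0.842 TPM, and relative to CUL5 it was 3.43, 3.93 and 4.45 in the controls and 7.57, 4.57 and 4.87 after knockdown, with shFAM111B replicate 1 apart from the other 2.

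Transcript length moved with the fold change. The longest annotated transcript of the tested members had a median length of 4522.5 nt, against 3210 nt over all tested genes. Across all tested genes, the Spearman correlation of length with the log2 fold change was -0.459 (n = 14263 genes), and across the members it was -0.149 (n = 100 genes). These genes share the same 6 libraries and are not independent replicates. Of the 36 members of 2000 to 4000 nt, 13 (36.1%) were called lower against 18.7% of all genes of that length. Of the 49 members of 4000 to 8000 nt, 28 (57.1%) were lower against 37.9%. Of the 8 members above 8000 nt, 2 (25%) were lower against 44.7%. The 3 members called higher were short, with SOCS1 at 1784 nt, RBX1 at 1871 nt and FBXO2 at 2215 nt. The part of length in these changes was not tested beyond the trend removal given above.

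**Figure D5:**
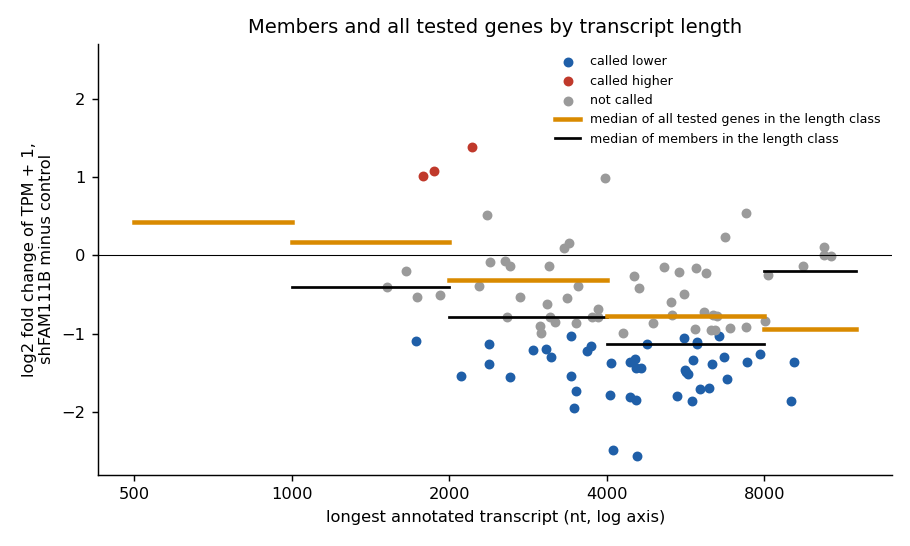
Log2 fold change of each tested member against the length of its longest annotated transcript (log axis), with lines for the median of all tested genes and of the members in each length class. From 2000 to 8000 nt the members' median lies below that of all genes of the same class (-0.79 against -0.31 and -1.12 against -0.78).

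Genes that work with the ligases were read from lists written for this purpose. Of 10 genes for NEDD8 and its enzymes, 2 (20%) were called lower and 1 (10%) higher, near the 23.7% and 6.77% of all tested genes. NEDD8 was at 286, 295 and 293 TPM in the controls and at 682, 640 and 727 TPM after knockdown (1.22 ± 0.054, SE, limma adjusted p = 4.03e-06). DCUN1D1 and DCUN1D4, co-factors that help transfer NEDD8 to cullins, changed by -1.82 ± 0.12 and -1.58 ± 0.15, and by -0.79 and -0.92 after trend removal, where they were not called. Without shFAM111B replicate 1, the higher calls of this list were 2. Of 12 tested genes for the COP9 signalosome and cullin exchange, 2 (16.7%) were called lower and 1 (8.33%) higher, against 23.7% and 6.77% of all tested genes. COPS2 (-1.72 ± 0.083) and CAND1, which exchanges the receptors of CUL1 (-1.09 ± 0.062), were called lower and COPS9 was called higher (1.16 ± 0.14). After trend removal COPS2 (-0.89), CAND1 (-0.25) and COPS9 (0.34) were not called. Of 11 ubiquitin transfer partners, 3 (27.3%) were called lower and 2 (18.2%) higher, against 23.7% and 6.77% of all tested genes. The lower genes included UBE2G1 at -1.58 ± 0.085 and ARIH2, an ariadne ligase that works with CUL5, at -1.16 ± 0.091. The higher genes were ELOB, elongin B, at 1.39 ± 0.12 and CDC34, an E2 enzyme of SCF ligases, at 1.11 ± 0.12, and without shFAM111B replicate 3 this count was 1. After trend removal none of the 11 was called, with UBE2G1 at -0.98, ELOB at 0.84 and CDC34 at 0.88. Of all tested genes, 9.11% were then lower and 9.54% higher. After median-of-ratios scaling 4 of the 11 were higher and 1 lower, against 14% and 12.4% of all tested genes. CAND1 and ARIH2 were not called after median-of-ratios scaling. The median lengths of these 3 lists were 2227, 2786 and 2780 nt.

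Of 39 other cullin substrate receptors tested, 14 (35.9%) were called lower and 1 (2.56%) higher, against 23.7% and 6.77% of all tested genes, with a median of -0.64. After median-of-ratios scaling 6 were lower and 2 higher, against 12.4% and 14% of all tested genes. After trend removal 1 was lower and 2 higher, against 9.11% and 9.54%, with a median of -0.14. FEM1C, a CUL2 receptor, changed by -1.81 ± 0.10 (-0.96 and not called after trend removal) and KBTBD4, a CUL3 receptor, by -1.57 ± 0.25, while SPSB2, a SOCS-box receptor, was higher by 1.43 ± 0.10. Of 28 known protein substrates of these ligases, 10 (35.7%) were called lower and 1 (3.57%) higher at the RNA level. All tested genes had 23.7% and 6.77%, and the median substrate was at -0.84. Both after median-of-ratios scaling and after trend removal, 7 substrates were lower and 1 higher. Of all tested genes, 12.4% were lower and 14% higher in the former, and 9.11% and 9.54% in the latter. WEE1, the mitotic inhibitor kinase, changed by -2.02 ± 0.12 and HIF1A, the hypoxia factor degraded through VHL, by -2.01 ± 0.090, and CDKN1C, a cyclin-dependent kinase inhibitor, was higher by 1.09 ± 0.13.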

How the data were processed

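RNA was sequenced from Huh7 cells, 3 control and 3 shFAM111B libraries. The labels describe a stranded mRNA kit with poly(A) selection, whereas the paper names a TruSeq kit. The authors deposited the TPM of each library, and the submitters' processing notes name RSEM, DESeq2 and hg38. The aligner, versions and the strand setting of counting are not given in the sources used here. The deposited table also holds the authors' own group means and their comparison of the groups, namely a fold change (ratio), the log2 of that ratio, and p-values before and after adjustment, none of which were used. TPM keep no depth, so the depth is unknown and no counting interval is given. The TPM summed to 978634 to 997094 per library.

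A gene was kept when 3 or more of the 6 libraries had 1 TPM or more (14394 genes), and log2(TPM + 1) was compared in limma 3.58.1 (R 4.3.3, lmFit and eBayes with trend, no covariates). Benjamini-Hochberg adjustment was over all tested genes. A call required both a 2-fold change and an adjusted p under 0.05, whereas the paper uses the same fold limit with P under 0.05. TPM are relative, so the alternatives included 4 rescalings and a loess removal (span 0.75) of the trend with length and expression. Lengths are those of the longest transcript in GENCODE v29, which need not be the one expressed, and positions are from the same release (58420 of 60666 identifiers matched, 96.3%, and all 132 members). Promoter sequences are from RefSeq. Ratios within a library were compared by exact permutation.

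Named genes were all cullins, RBX1, SKP1, DDB1 and a fixed set of well-known receptors, the 3 largest called falls and rises of each family at a mean of at least 2 TPM, the member with the highest control level in each family, and 2 rises and 2 falls of each pathway list. The values of 1 member that the rule names are not reported here, and it stays in the counts. Members, lists and tests were chosen with earlier results of these data known. Fewer than 1% of TPM were identical between any 2 libraries (at most 0.889%), so no library was a duplicate. The script was tested on simulated data. Python 3.11.15 with pandas 2.3.3, numpy 2.4.6, scipy 1.17.1 and matplotlib 3.10.9 was used for tables and figures.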

Additional observations from a re-analysis of the deposited data

How the results depend on the processing

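The members' median stayed below 0 in all alternatives, and it was -0.53 after median-of-ratios scaling, -0.56 after upper-quartile scaling, -0.51 after quantile normalization, -0.39 in median-centred libraries, -0.36 after removal of the length and expression trend and -1.08 with a pseudocount of 0.1. In the same order of the first 5, 22, 25, 19, 16 and 13 members were called lower, against 12.4%, 13.2%, 12.8%, 9.07% and 9.11% of all tested genes. With a pseudocount of 0.1, 56 were called lower and 4 higher, against 29.5% and 8.65%. With no limit on the fold change 78 were called lower, where 83 members and 10370 of the 14394 tested genes had an adjusted p under 0.05. That count of all genes was not split by direction. By sign alone, 89 members and 9307 of the 14394 tested genes were below 0. Higher calls were 5 after quantile normalization, against 11.6% of all tested genes, and 6 in median-centred libraries, against 17.9%. They were 6 after trend removal, against 9.54%, and 5 with no fold limit. Of all genes called, 22.2% were higher in the deposited TPM, 52.9%, 49.7%, 47.5% and 66.4% under the first 4, and of the members called 6.38%, 15.4%, 13.8%, 20.8% and 27.3%. Values turned above 0 for the median of RBX1, SKP1 and DDB1 (0.31), CUL7 (0.22), CUL9 (0.17), DDB1 (0.19), FBXW5 (0.36) and SKP1 (0.31) after median-of-ratios scaling, and in the same order to 0.27, 0.18, 0.13, 0.14, 0.32 and 0.27 after upper-quartile scaling. After quantile normalization CUL7 (0.30), CUL9 (0.27) and FBXW5 (0.041) turned. In median-centred libraries these were the median of RBX1, SKP1 and DDB1 (0.39), that of FBXL and SKP2 (0.023), CUL7 (0.32), CUL9 (0.28), DDB1 (0.26), FBXW5 (0.45) and SKP1 (0.39). After trend removal they were the median of the 3 subunits (0.051), that of KLHL (0.012), CUL7 (0.67), CUL9 (0.78), DCAF13 (0.087), DDB1 (0.0094), FBXW5 (0.074) and SKP1 (0.051). Scaling and trend removal act on these values by construction, and no further cause was tested. Without any 1 replicate, 43 to 47 members were lower and 2 to 4 higher, with a median of -0.943 to -0.868. Of all tested genes, 23.3% to 24.6% were then lower and 6.28% to 7.45% higher. With the replicate number as a replicate block, 44 members were lower and 3 higher, as without it, and over all genes 3402 were lower and 983 higher against 3406 and 974. Same-numbered libraries correlated in their deviations by 0.054, 0.0349 and 0.0908, and libraries of different numbers by -0.0763 to 0.0442. With 3 libraries per group, these values cannot show whether same-numbered libraries shared a culture or a batch. With at least 1 TPM required in every library, named genes such as FBXO10, SOCS7 and KLHL15 have no value. Depth is unknown, and low values such as those of FBXO10 after knockdown carry a counting error that cannot be given here.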
